A study of Homo sapiens with 2 samples.

Results

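The 8 genes described here are PMS1, PMS2, MSH3, MSH6, BRCA1, BRCA2, PARP1 and MGMT, which act in DNA mismatch repair, in repair of double-strand breaks by homologous recombination, in the response to DNA strand breaks, and in direct reversal of alkylated guanine. They were chosen by name, with earlier results of these data known, and were found by symbol and identifier among the 30796 genes of the deposited matrix. Cells of the human lines MDAMB468 and CAL51, both labelled triple negative breast cancer, had been profiled one by one with Drop-seq. In this method a cell and a bead share an oil droplet, and each messenger RNA is tagged at its 3′ end with the bead's barcode and with a random tag, the unique molecular identifier or UMI. Both are established cell lines from breast, no treatment or time point is given for either, and each line was represented by 1 library. A difference between the lines therefore has no replicate check, culture and library cannot be told apart from line, and each interval below is a 95% interval that covers counting error only.

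For MDAMB468 5501900 UMIs in 306 barcodes were available, with a median of 10016.5 UMIs per barcode. In the CAL51 library 31 of 1377 barcodes carried a sequence that also occurred in the MDAMB468 library. They were left out, which left 1346 barcodes with 16223444 UMIs and a median of 8635. Keeping them moved no member's difference between the lines by more than 0.0097 on the log2 scale. A further 64 barcodes of MDAMB468 and 7 of CAL51 were 1 base away from another, at least 5 times deeper barcode of their own library. Both libraries went with their labels: EGFR, amplified in MDAMB468, had 2524 UMIs there against 196 in CAL51, and RB1, lost in MDAMB468, had 18 against 1266. The epithelial markers did not all go the same way. EPCAM was at 867 counts per 1000000 UMIs (CPM) in MDAMB468 and 283 CPM in CAL51. KRT19 was at 1934 and 30.6 CPM, CDH1 at 33.1 and 0.431 CPM, and KRT7 at 953 and 0 CPM. KRT8, at 764 and 919 CPM, and KRT18, at 555 and 1555 CPM, were higher in CAL51. Of 10 markers of immune, endothelial and fibroblast cells 8 were in the files, and together they gave 12 UMIs in MDAMB468, with 4 of them at 0, and 28 in CAL51, with none at 0, so that their summed levels were 2.18 and 1.73 CPM.

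Mismatch repair corrects errors that escape the proofreading of DNA polymerase. MSH6 or MSH3, each joined to a common MutS partner, recognises the mispair, and PMS2 or PMS1, each joined to a common MutL partner, acts downstream of it. BRCA1 and BRCA2 serve the repair of broken ends by homologous recombination, PARP1 binds DNA breaks and builds chains of ADP-ribose there, and MGMT removes a methyl group from guanine by transferring it onto itself. Loss of BRCA1 or BRCA2 function sensitises cells to PARP inhibitors, and silencing of MGMT sensitises them to alkylating drugs.

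For 4 members that start head to head with another gene, the bases between the starts serve both genes, and these short stretches are shown for the readout of both sides described below. Sequences and starts are those of RefSeq on GRCh38.p14, read 5′ to 3′ on the member's strand, and capitals mark the words CCAAT and CCGGAA in either orientation and the word TTTGCCGC.
BRCA1, with NBR2, chr17:43125365-43125556, minus strand: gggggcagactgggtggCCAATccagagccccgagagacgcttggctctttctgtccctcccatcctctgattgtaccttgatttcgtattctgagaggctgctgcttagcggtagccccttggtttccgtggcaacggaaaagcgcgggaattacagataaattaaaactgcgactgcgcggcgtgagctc
BRCA2, with ZAR1L, chr13:32315364-32315507, plus strand: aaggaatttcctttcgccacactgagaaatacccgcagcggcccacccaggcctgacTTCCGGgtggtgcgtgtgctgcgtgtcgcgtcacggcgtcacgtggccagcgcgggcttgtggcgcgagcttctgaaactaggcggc
PMS1, with ORMDL1, chr2:189784340-189784449, plus strand: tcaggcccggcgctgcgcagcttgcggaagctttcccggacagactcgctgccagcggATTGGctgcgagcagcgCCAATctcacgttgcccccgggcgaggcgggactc
PMS2, with AIMP2, chr7:6009107-6009271, minus strand: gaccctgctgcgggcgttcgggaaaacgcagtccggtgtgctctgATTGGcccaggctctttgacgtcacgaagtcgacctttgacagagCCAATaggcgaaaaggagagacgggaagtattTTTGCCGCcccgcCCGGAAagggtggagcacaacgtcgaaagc

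The stretches are 192, 144, 110 and 165 bases long. CCAAT, the core of the word bound by NF-Y, occurred 2 times on either strand in the PMS1 and PMS2 stretches, once in that of BRCA1 and not in that of BRCA2. CCGGAA, a core word of ETS family factors, occurred once in the BRCA2 and PMS2 stretches. TTTGCCGC, 1 of 4 words searched for E2F factors (TTTCCCGC, TTTGGCGC, TTTCGCGC and TTTGCCGC), occurred once, in the PMS2 stretch. Both strands were read, and no 2 of the marked words overlap there. Over the 35116 RefSeq windows from 250 bases before to 50 bases after a start, 34.6% held CCAAT, 17.2% held CCGGAA and 3.31% held an E2F word. All 8 members had such a window. An E2F word was present 2 times in the MSH3 window, once in 1 of the 4 windows of MSH6 and in the windows of PMS2, and in none of those of BRCA1, BRCA2, PARP1, MGMT and PMS1. The MGMT window held 45 CG pairs, more than 96.5% of all windows held. These matches describe letters in a window and not bound sites.

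Of the 8 genes, BRCA1 alone differed at least 2-fold between the lines, with the higher level in CAL51. Differences are given as log2 of CPM plus 1 in MDAMB468 minus the same in CAL51. Among 15347 genes with at least 20 UMIs over both lines, 18.6% were at least 2-fold higher in CAL51 and 15.8% at least 2-fold higher in MDAMB468, against 1 and 0 of the 8 members. All 8 members passed that minimum. The median difference was -0.30 over the members and -0.13 over all genes. PARP1, PMS1 and MSH3 were also higher in CAL51, PMS2 was higher in MDAMB468, and the counting intervals of the folds of MSH6, BRCA2 and MGMT included 1.

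**Figure D1:**
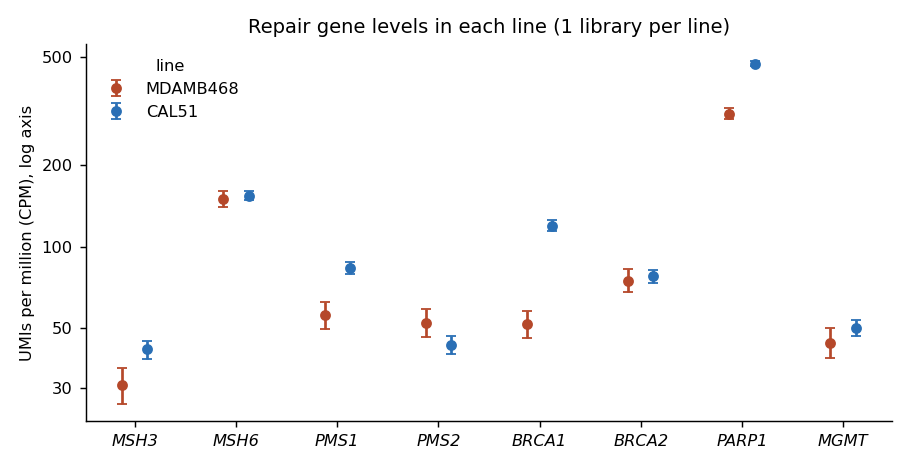
Level of each of the 8 genes in CPM (log axis) in the MDAMB468 and CAL51 libraries, with 1 point per library and bars for the exact 95% Poisson interval of the UMI count. The wide gap at BRCA1 (51.6 against 119.6 CPM) and the smaller gaps at PARP1, PMS1 and MSH3 contrast with the near overlap at MSH6 and BRCA2.

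MSH3 and MSH6 recognise mispairs. MSH6 (ENSG00000116062, chromosome 2, 47695530 to 47810101, plus strand, GRCh38) serves single-base mispairs and short loops, and it had 824 UMIs in MDAMB468 and 2503 in CAL51. Its level was 149.8 CPM (139.7 to 160.4) in MDAMB468 and 154 CPM (148 to 160.4) in CAL51, and the MDAMB468 to CAL51 ratio was 0.971 (0.896 to 1.05). The MSH6 levels of the lines overlapped. MSH3 (ENSG00000113318, chromosome 5, 80654648 to 80876460, plus strand) serves larger loops and had 169 UMIs in MDAMB468 and 676 in CAL51. Its level was 30.7 CPM (26.3 to 35.7) against 41.7 CPM (38.6 to 44.9), a ratio of 0.737 (0.619 to 0.874). MSH3 was thus lower in MDAMB468, with intervals that did not overlap. The ratio of MSH6 to MSH3 UMIs was 4.88 (4.13 to 5.79) in MDAMB468 and 3.70 (3.40 to 4.04) in CAL51, so that MSH6 was the more abundant of the pair in both lines. Because the protocol tags the 3′ end of each molecule once, UMIs were compared between genes without division by gene length, and unequal capture of 3′ ends was not tested.

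PMS1 and PMS2 are the alternative MutL subunits, and PMS2 carries the endonuclease activity that nicks the strand to be corrected. PMS2 (ENSG00000122512, chromosome 7, 5973239 to 6009125, minus strand) had 287 UMIs in MDAMB468 and 702 in CAL51, or 52.2 CPM (46.3 to 58.6) and 43.3 CPM (40.1 to 46.6). It was the member with the highest difference, 0.26, and the ratio was 1.21 (1.05 to 1.38), although the intervals of its levels overlapped slightly. PMS1 (ENSG00000064933, chromosome 2, 189784085 to 189877629, plus strand), whose role in repair is less well defined, had 307 UMIs in MDAMB468 and 1351 in CAL51. Its level was 55.8 CPM (49.7 to 62.4) against 83.3 CPM (78.9 to 87.8), a ratio of 0.670 (0.590 to 0.759). The MutL subunits thus lay in opposite directions: the ratio of PMS2 to PMS1 UMIs was 0.935 (0.793 to 1.10) in MDAMB468 and 0.520 (0.474 to 0.570) in CAL51. PMS2 has many near-identical copies in the genome, and the division of reads among them is not known here. The 10 PMS2 pseudogenes and PMS2-like genes in the files summed to 356 and 1030 UMIs, 64.7 CPM in MDAMB468 and 63.5 CPM in CAL51, a ratio of 1.02 (0.901 to 1.15). More UMIs were therefore assigned to the copies than to PMS2 in both lines, which leaves the PMS2 level uncertain.

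BRCA1 (ENSG00000012048, chromosome 17, 43044295 to 43170245, minus strand) promotes the resection of broken ends that precedes recombination. It had 284 UMIs in MDAMB468 and 1940 in CAL51, or 51.6 CPM (45.8 to 58.0) and 119.6 CPM (114 to 125). The level in CAL51 was 2.32-fold higher (2.04 to 2.63), a log2 difference of -1.20, and 14.3% of all genes had a lower difference. BRCA2 (ENSG00000139618, chromosome 13, 32315474 to 32400266, plus strand), which acts after resection, had 412 UMIs in MDAMB468 and 1258 in CAL51. Its levels were 74.9 CPM (67.8 to 82.5) and 77.5 CPM (73.3 to 81.9), a ratio of 0.966 (0.862 to 1.08). The order of the pair was opposite in the lines: the ratio of BRCA1 to BRCA2 UMIs was 0.689 (0.591 to 0.804) in MDAMB468 and 1.54 (1.44 to 1.66) in CAL51. A single MDAMB468 barcode held 28 of the BRCA2 UMIs, or 6.80% of them, and the level without it was 71.0 CPM.

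PARP1 (ENSG00000143799, chromosome 1, 226360691 to 226408079, minus strand) was the most abundant member in both lines, with 1702 UMIs in MDAMB468 and 7678 in CAL51. Its level was 309 CPM (295 to 324) against 473 CPM (463 to 484), 1.53-fold higher in CAL51 (1.45 to 1.61). MGMT (ENSG00000170430, chromosome 10, 129467184 to 129768007, plus strand) had 243 UMIs in MDAMB468 and 811 in CAL51, or 44.2 CPM (38.8 to 50.1) and 49.99 CPM (46.6 to 53.6). The MGMT ratio was 0.884 (0.762 to 1.02), and MGMT RNA was present in both lines.

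In order of level, PARP1 was followed by MSH6 and BRCA2 in MDAMB468, and then by PMS1, PMS2, BRCA1 and MGMT, with MSH3 lowest. Within that group of 4 the ratio of PMS1 to MGMT, 1.26 (1.06 to 1.501), had an interval above 1, and the other 5 pairs did not differ beyond counting error. In CAL51 PARP1 was followed by MSH6 and BRCA1, then by PMS1 and BRCA2, which did not differ beyond counting error, then by MGMT, and last by PMS2 and MSH3, which did not differ either. BRCA1 thus held the third place in CAL51 and could not be told apart from PMS1, PMS2 or MGMT in MDAMB468.

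The shares of barcodes with at least 1 UMI were compared after every barcode had been thinned at random to 2500 UMIs, a depth that all barcodes reached. BRCA1 was detected in 13.1% (9.51 to 17.4, Clopper-Pearson) of MDAMB468 barcodes and in 24.5% (22.2 to 26.9) of CAL51 barcodes. PARP1 was detected in 50.3% (44.6 to 56.1) and 68.9% (66.3 to 71.3). Without thinning these shares were 40.5% and 57.4% for BRCA1 and 85.3% and 94.3% for PARP1. BRCA1 and PARP1 were therefore found in a larger share of CAL51 barcodes at either depth. For PMS1 the shares were 9.48% (6.44 to 13.3) and 18.7% (16.7 to 20.9), and 45.4% and 50.7% without thinning. The draw was low for PMS1 in MDAMB468, since the exact expectation over all draws was 13.1% (9.51 to 17.4) there and 18.04% (16.03 to 20.2) in CAL51, with intervals that overlapped. At 1000 UMIs the PMS1 shares were 7.19% and 8.40%, and at 5000 UMIs, over only the barcodes that reached this depth, 22.2% and 33.6%. Non-overlap at 2500 UMIs therefore rested on the draw for PMS1.

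The other members had closer shares at 2500 UMIs. MSH6 was at 29.7% in MDAMB468 and 30.4% in CAL51, and 69.0% and 68.6% without thinning. The 4 remaining genes, BRCA2, PMS2, MGMT and MSH3, had thinned shares between 7.52% (MSH3) and 15.03% (BRCA2) in MDAMB468, and between 9.06% (MSH3) and 16.3% (BRCA2) in CAL51. Unthinned, they lay between 29.4% (MSH3) and 46.4% (PMS2) in MDAMB468 and between 32.4% (MSH3) and 44.4% (BRCA2) in CAL51. The PMS2 shares were 4.58% in MDAMB468 and 4.98% in CAL51 at 1000 UMIs, and 11.4% and 10.3% at 2500 UMIs. At 5000 UMIs, over only the barcodes that reached this depth, they were 27.4% and 19.8%. Without thinning they were 46.4% and 34.2%, but the lines then differed in depth, with medians of 10016.5 and 8635 UMIs per barcode. MGMT, at 11.1% and 11.8% at 2500 UMIs, was at 41.8% and 38.8% without thinning. The part of depth in the unthinned gaps was not tested. RB1, which MDAMB468 has lost, was found in 0.98% (0.203 to 2.84) of the thinned MDAMB468 barcodes, and EGFR in 2.75% (1.94 to 3.77) of the thinned CAL51 barcodes. All 8 members lay above both of these shares in both lines. At 2500 UMIs a barcode showed a median of 1 member in MDAMB468 and 2 in CAL51, with means of 1.48 and 1.90 and at most 4 and 6.

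**Figure D2:**
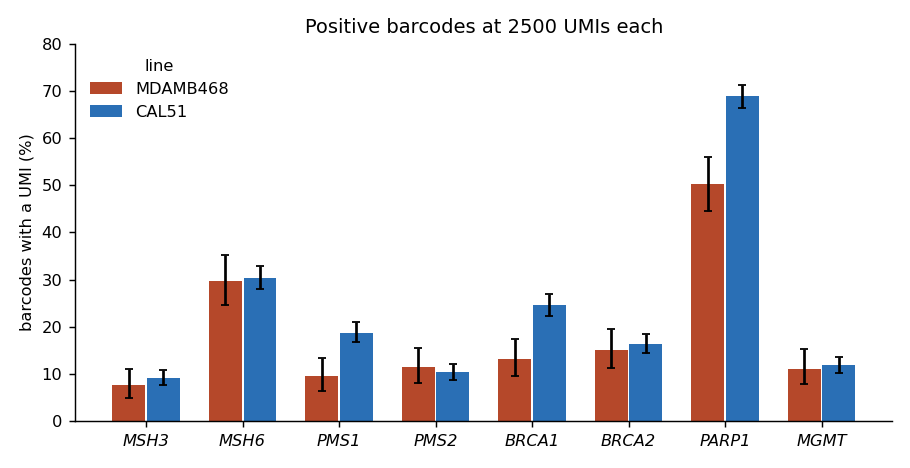
Share of barcodes (percent) with at least 1 UMI of each gene after thinning to 2500 UMIs, in 306 MDAMB468 and 1346 CAL51 barcodes, with exact 95% Clopper-Pearson intervals. The intervals of BRCA1, PARP1 and PMS1 do not overlap between the lines in this draw, which was low for PMS1 in MDAMB468 (9.48% against an expected 13.1%), and those of the other 5 genes do.

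Joint detection of 2 members in a thinned barcode was set against the number expected from their separate shares. In CAL51 21 of the 28 pairs were found together more often than that, with a median ratio of 1.04 and a range from 0.702 to 1.27. In MDAMB468 14 of 28 pairs were above 1, the median was 1.01 and the range ran from 0.333 to 1.81, with as few as 1 barcode holding both genes. Detection of 1 member thus told little about detection of another at this depth.

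The levels were next compared between phases of the cell cycle, called for each barcode from 31 S phase genes and 54 G2 and M phase genes that hold no member, at 2500 UMIs. The calls gave 51 G1, 99 S and 156 G2M barcodes in MDAMB468 and 95, 524 and 727 in CAL51. Of the MDAMB468 G2M barcodes 53 were among the 64 that lie 1 base from a deeper barcode. The called G1 barcodes still held UMIs of the proliferation marker MKI67, at 75.0 CPM in MDAMB468 and 53.1 CPM in CAL51, against 445 and 838 CPM in G2M, but MKI67 is among the genes that set the calls, so its order over phases is no check of them. The part of free RNA in these calls was not tested. Barcodes of 1 library are not replicates, so the comparison is a description.

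BRCA1 and BRCA2 were lowest in G1 in both lines. BRCA1 was at 23.1 CPM in G1, 75.6 CPM in S and 47.0 CPM in G2M in MDAMB468, and at 31.2, 155 and 107 CPM in CAL51. The S to G1 ratio of BRCA1 was 3.28 (2.03 to 5.55) in MDAMB468 and 4.98 (3.40 to 7.61) in CAL51. From S to G2M, BRCA1 was lower in both, at ratios of 0.621 (0.484 to 0.798) and 0.687 (0.627 to 0.752). BRCA2 was at 24.2 CPM in G1, 83.1 CPM in S and 85.0 CPM in G2M in MDAMB468, and at 19.6, 86.6 and 77.5 CPM in CAL51. Its S to G1 ratio was 3.43 (2.15 to 5.72) in MDAMB468 and 4.41 (2.73 to 7.64) in CAL51, but its G2M to S ratios had intervals that included 1. BRCA2 thus stayed near its S level in G2M while BRCA1 was lower there. When phases were called at 1000 UMIs, the S to G1 ratios in CAL51 were 2.55 for BRCA1 and 2.27 for BRCA2, that of BRCA2 in MDAMB468 was also 2.27, and the G2M to G1 ratio of BRCA2 in MDAMB468 was 2.23 in place of 3.51. The direction held and the size depended on the calls.

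MSH6 was also highest in S, at 216 CPM against 173 CPM in G1 and 108 CPM in G2M in MDAMB468. In CAL51 it was at 195 CPM in S, 100 CPM in G1 and 135 CPM in G2M. The S to G1 ratio of MSH6 was 1.25 (1.03 to 1.52) in MDAMB468 and 1.94 (1.56 to 2.45) in CAL51. It was 1.07 and 1.44 with phases called at 1000 UMIs. The G2M to G1 ratios of MSH6 pointed in opposite directions, 0.623 (0.512 to 0.761) in MDAMB468 and 1.35 (1.08 to 1.69) in CAL51. With phases called at 1000 UMIs the CAL51 value was 1.04. PARP1 was at 284, 354 and 293 CPM in G1, S and G2M of MDAMB468 and at 316, 500.3 and 472 CPM in CAL51. Its S to G1 ratio was 1.25 (1.07 to 1.45) in MDAMB468 and 1.58 (1.40 to 1.80) in CAL51. With phases called at 1000 UMIs it was 1.07 and 1.21. The S to G1 ratio of PARP1 thus lay below those of BRCA1 and BRCA2 in both lines. The intervals of the S to G1 ratios of MSH3, PMS1, PMS2 and MGMT included 1 in both lines. Their point values ran from 0.844 (PMS2) to 1.14 (MSH3) in MDAMB468 and from 0.847 (PMS2) to 1.22 (PMS1) in CAL51.

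Counted at 1.5-fold, 2 of 8 members were higher in S than in G1 in MDAMB468, where 9.86% of 6513 genes with at least 100 UMIs were, and 4 of 8 in CAL51, where 14.3% of 9793 genes were. None was lower in S, where 4.07% and 13.3% of all genes were. For G2M over G1, 2 members were higher and 1 lower in MDAMB468 (10.3% and 3.07% of all genes), and 2 were higher and 0 lower in CAL51 (14.1% and 11.5%). For G2M over S, 2 members were lower in MDAMB468 (2.38% of all genes) and 0 in CAL51 (0.98%), and none was higher in either line (4.39% and 1.84%). With phases called at 1000 UMIs the S over G1 count in CAL51 was 2, BRCA1 and BRCA2, with MSH6 at 1.44 and PARP1 at 1.21, while 8.37% of all genes passed. In MDAMB468 that count was 3, with MSH3 the added gene at 1.56, where 7.31% of all genes passed. The 2 members lower in G2M than in S in MDAMB468 were MSH6 and BRCA1, and MSH6 alone passed with phases called at 1000 UMIs or in each line by itself.

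**Figure D3:**
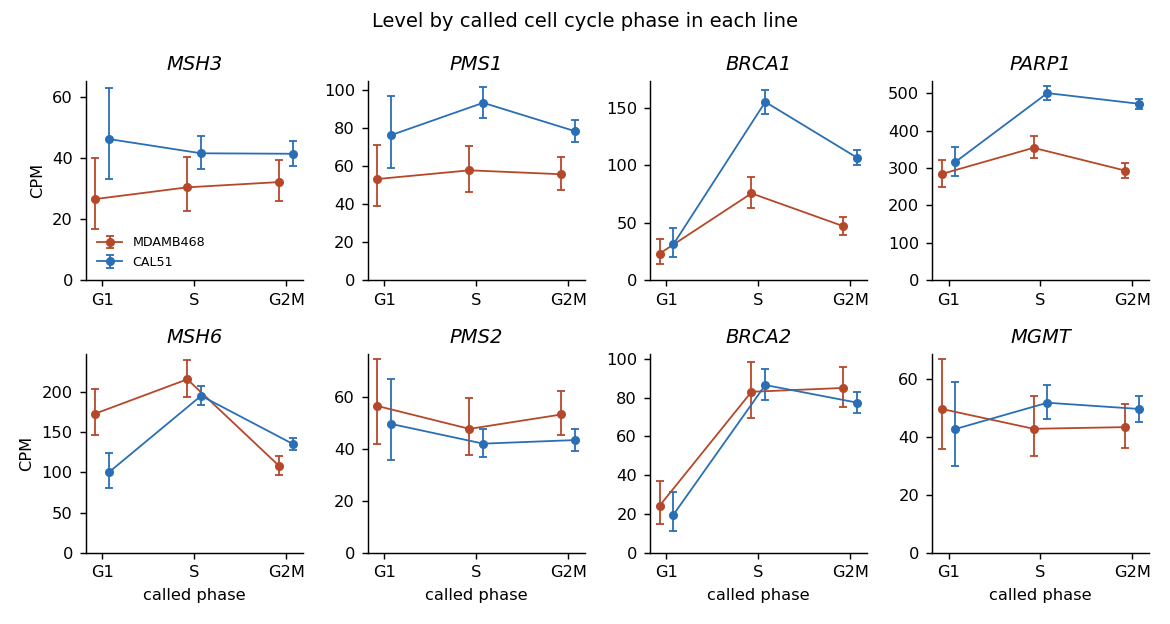
Level of each gene in CPM (linear axis) over the barcodes called G1, S and G2M in MDAMB468 and in CAL51, with exact 95% Poisson intervals. BRCA1 and BRCA2 are lowest in G1 in both lines, MSH6 is highest in S, and the G1 and S intervals of MSH3, PMS1, PMS2 and MGMT overlap.

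Within a phase, the difference of BRCA1 between the lines was present in S and in G2M, with MDAMB468 to CAL51 ratios of 0.487 (0.400 to 0.589) and 0.441 (0.367 to 0.526). In G1, where BRCA1 had 20 and 27 UMIs, the ratio was 0.741 (0.394 to 1.37) and a difference was not detectable at this depth. PARP1 had ratios of 0.898 (0.753 to 1.07) in G1, where the interval included 1, 0.708 (0.646 to 0.774) in S and 0.621 (0.577 to 0.668) in G2M. MSH6, without a difference over all barcodes, was higher in MDAMB468 in G1 at 1.72 (1.32 to 2.27), was at 1.11 (0.977 to 1.25) in S, and was lower in G2M at 0.798 (0.704 to 0.901). PMS1 was lower in MDAMB468 in S, at 0.619 (0.491 to 0.773), and in G2M, at 0.711 (0.598 to 0.842), and its G1 interval included 1. MSH3 was lower in MDAMB468 in each phase. Its ratio was 0.575 (0.329 to 0.984) in G1, with 23 and 40 UMIs. In S it was 0.732 (0.526 to 0.999) and in G2M 0.776 (0.615 to 0.971). PMS2 was higher in MDAMB468 in G2M, at 1.23 (1.02 to 1.47), and its G1 and S intervals included 1. Those of BRCA2 and MGMT included 1 in each phase.

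The 1346 CAL51 barcodes were further ordered by the angle of their S and G2M scores into 12 bins of equal number, and 4982 genes with at least 500 UMIs outside the scored lists were ranked by Pearson's r of log2 CPM plus 1 with each member over the bins. Since the bins share 1 library and were set by the scores, r is a description, given without a p-value. The named genes are the highest of 4982 over only 12 bins, and the r that counting noise alone would give was not tested. A bin held as few as 41 UMIs of MSH3, 42 of PMS2, 50 of MGMT, 59 of BRCA2 and 74 of BRCA1. Over the bins BRCA1 ran from 58.3 to 182 CPM, MSH6 from 109 to 231 CPM, BRCA2 from 46.5 to 96.6 CPM and PARP1 from 352 to 520 CPM. The most alike genes were CTNNAL1 (0.969), EIF1AX and NUP155 for BRCA1, and MRE11 (0.959), LMNB1 and FANCD2 for BRCA2. They were MT1A (0.937), NAP1L1 and UNG for MSH6, and CENPM (0.966), DHX15 and SNRPF for PARP1. Among these are MRE11, a nuclease of the break-sensing complex, FANCD2 of the Fanconi anaemia pathway, and UNG, the glycosylase that removes uracil from DNA. The members without an S phase difference had lower best values: 0.905 (TM7SF3), with ALDH7A1 and LAS1L next, for PMS1, 0.872 (C22orf39), with DHX40 and ESCO1 next, for PMS2, 0.867 (VCAN), with SAV1 and UTRN next, for MGMT, and 0.837 (IMMT), with DHX40 and C18orf21 next, for MSH3.

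The partners of the members were described by lists of known pathway genes, 92 genes in 6 lists, all of which passed the minimum of 20 UMIs. Over the 92 genes the median difference was -0.44, with 21 genes (22.8%) at least 2-fold higher in CAL51 and 1 gene (1.09%) at least 2-fold higher in MDAMB468, against 18.6% and 15.8% of all genes. Of 27 partners in homologous recombination, 9 were at least 2-fold higher in CAL51 and 0 in MDAMB468, with a median of -0.53. They ranged from NBN, a subunit of the complex that senses breaks, at -1.91 with 427 UMIs in MDAMB468 and 4792 in CAL51, to RAD51B, which acts in recombination, at 0.66 with 39 and 67 UMIs. Of 17 genes listed for mismatch repair, 4 (RFC2, RFC4, LIG1 and POLD1) were at least 2-fold higher in CAL51 and 0 in MDAMB468. The list had a median of -0.53, from RFC4, a subunit of the clamp loader, at -1.35 to POLD4, a subunit of DNA polymerase delta, at 0.96. Most of it, namely PCNA, LIG1 and the RFC, RPA and POLD subunits, also serves DNA replication. The common MutS and MutL partners were not in it. Of 12 genes of the Fanconi anaemia pathway, which repairs crosslinks, 2 were at least 2-fold higher in CAL51 and 0 in MDAMB468, with a median of -0.56 and a range from FANCD2 at -1.77 to FANCF at 0.49.

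The PARP family and base excision repair list, the setting in which PARP1 acts on single-strand breaks, had a median of -0.22 over 25 genes. The median over all genes was -0.13. The list held 4 genes at least 2-fold higher in CAL51 and 0 in MDAMB468, where 18.6% and 15.8% of all genes were. Its highest difference was that of the nuclease APEX2, at 0.84. The end joining list had a median of -0.52 over 8 genes, with 2 at least 2-fold higher in CAL51 and 0 in MDAMB468, from POLQ, the polymerase of microhomology-mediated joining, at -1.16 to the ligase LIG4 at 0.62. Cell cycle lists lay on the same side: the 31 S phase genes had a median of -0.66, with 10 at least 2-fold higher in CAL51 and 0 in MDAMB468, and the 54 G2 and M phase genes had a median of -0.43, with 6 and 1. MKI67 was at 349 CPM in MDAMB468 and 674 CPM in CAL51. The part of cycling in the differences of the repair lists was not tested.

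**Figure D4:**
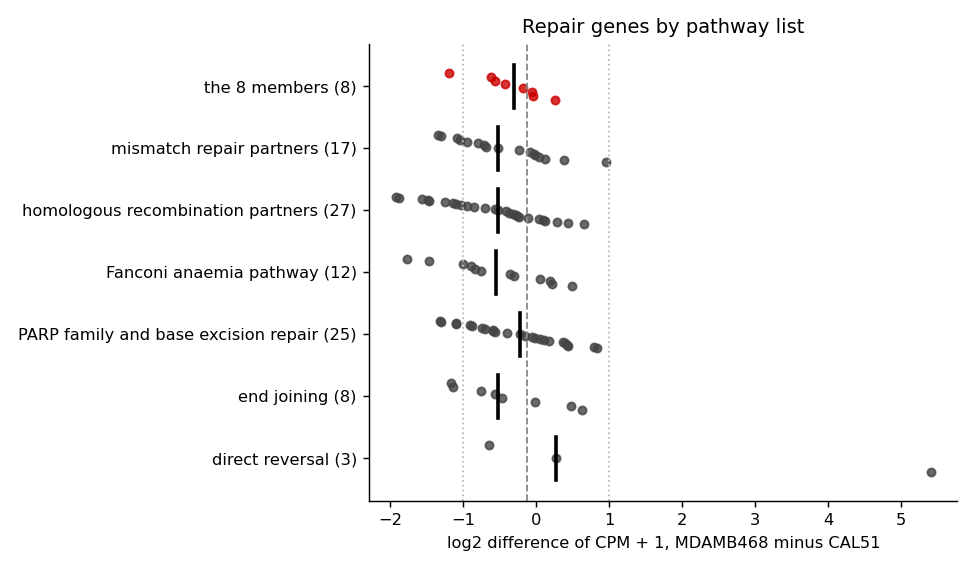
Difference between the lines (log2 of CPM plus 1, MDAMB468 minus CAL51) for each gene of the members and of the 6 pathway lists, with 1 point per gene and a bar at each list's median. Most list medians lie below the all-gene median of -0.13, and ALKBH3 at 5.40 stands far above all other points.

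Direct reversal, the class that MGMT belongs to, held the 1 repair gene that was at least 2-fold higher in MDAMB468. ALKBH3, a dioxygenase that removes alkyl groups from single-stranded DNA and from RNA, had 227 UMIs (41.3 CPM) in MDAMB468 and 0 in CAL51. Against a floor of 3 counts in the CAL51 library the ratio was 223. By the lower end of its exact interval, ALKBH3 was at least 180-fold higher in MDAMB468. At 2500 UMIs it was found in 10.5% (7.26 to 14.4) of MDAMB468 barcodes and in 0 of 1346 CAL51 barcodes, where the limit of 3 counts allows up to 0.223% and the exact interval up to 0.274% of barcodes with a UMI at this depth. Neither limits the share of cells that express the gene. ALKBH1 was at -0.64, and the list's median over 3 genes, 0.28, was that of ALKBH2. The 10 genes around ALKBH3, chosen after its value was seen, had a median of 1.001, with 5 at least 2-fold higher in MDAMB468. They ran from -0.40 to 5.96, so that the highest lay above ALKBH3 itself at 5.40. Each had 20 to 2017 UMIs in CAL51, so RNA from the genes around ALKBH3 was detected there.

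The partner genes across the printed stretches did not follow their member in every case. At BRCA1, the noncoding NBR2 had 33 UMIs in MDAMB468 and 63 in CAL51, a ratio of 1.54 (0.982 to 2.39), whereas BRCA1 was 2.32-fold higher in CAL51. At PMS2, AIMP2, a scaffold of the tRNA synthetase complex, had 1172 and 1383 UMIs and was 2.50-fold (2.31 to 2.70) higher in MDAMB468, in the same direction as PMS2 and larger. At PMS1, ORMDL1, a regulator of sphingolipid synthesis, had 652 and 2081 UMIs, a difference of -0.11 beside -0.57 for PMS1. ZAR1L, at BRCA2, had 1 UMI in MDAMB468 and 0 in CAL51, both under the floor of 3 counts. ORMDL1 and NBR2 overlap PMS1 and BRCA1 on the opposite strand in GENCODE 29, as FBXO11 does MSH6, and strand use in the counting is not known here. Reads of these pairs may therefore not be told apart.

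The wider surroundings were read from the 5 nearest genes on either side with at least 20 UMIs. PARP1 was lower in MDAMB468 relative to CAL51 than all 10 of its neighbours, whose differences ran from -0.47 to 0.96 with a median of 0.31 beside -0.61 for PARP1. BRCA1 lay below 8 of its 10 neighbours, which had a median of -0.22 and ran from -2.66 (RND2) to 3.02 (IFI35). MGMT was the reverse: 9 of its 10 neighbours, MKI67 among them, lay below its -0.17, with a median of -0.94. The neighbours of MSH3 and PMS1 had medians of -0.74 and -0.86, on the same side as the member. Those of MSH6, BRCA2 and PMS2 had medians of 0.31, 0.13 and 0.10. The ranges were wide, and DNA copy number was not measured here.

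**Figure D5:**
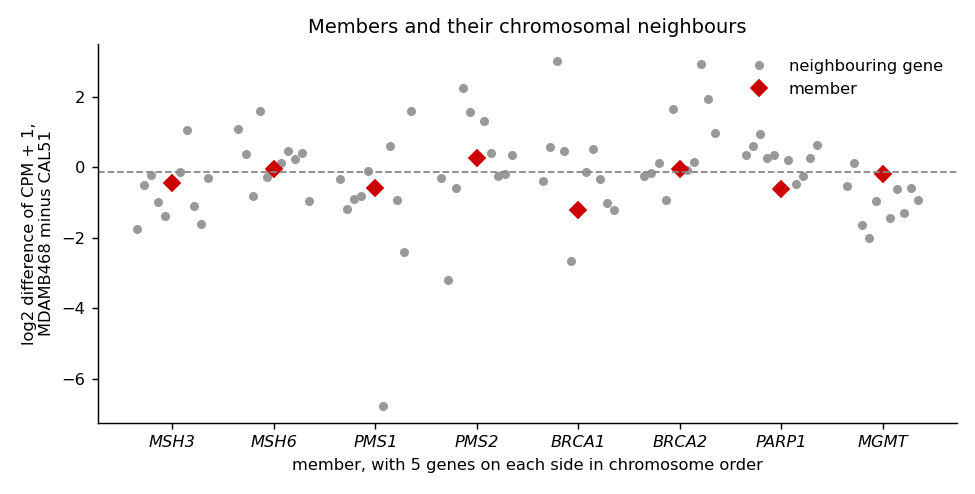
Difference between the lines (log2 of CPM plus 1, MDAMB468 minus CAL51) of each member beside the 10 genes nearest to it on the chromosome, 5 on either side. All 10 neighbours of PARP1 lie above it, and 9 of the 10 neighbours of MGMT lie below it.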

How the data were processed

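The deposited matrix holds whole-number counts of UMIs per gene and barcode from 3′ Drop-seq libraries, per the labels' protocols, with no normalisation visible in the values. Barcodes were assigned to a line by the line's name in the barcode. The submitters' processing notes name STARsolo. The build, annotation, strand setting and barcode selection, not given in the sources used here, remain unknown, and no barcode held fewer than 2501 UMIs. The members, lists and rules were chosen with earlier results of these data known.

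Symbols were matched for 30730 genes, positions for 29416 (GENCODE 29, GRCh38). UMIs were summed per line and scaled to CPM, without the 31 CAL51 barcodes whose 12-base sequence is also in MDAMB468. Differences are log2 of CPM plus 1, a scale that understates those of low genes. With 1 library per line no p-value was computed. Levels carry exact Poisson intervals, ratios exact intervals conditional on the total, and shares Clopper-Pearson intervals, all at 95% and for counting error only. Calculations were tested on simulated data. Doublets were not removed. Phases were scored with scanpy 1.11.5 on counts scaled to 10000 per barcode. Named are the 8 members, head-to-head genes, the extremes of each list, EGFR, RB1, MKI67 and the 3 most alike genes per member. Other genes were picked after their values were seen, and some results are not reported here. Alternatives were other scalings (edgeR 4.0.16 TMM factors, median of ratios), pseudocounts, barcode sets, minimum counts, thinning depths and phase calls. The other software was R 4.3.3 and Python 3.11.15 with scipy 1.17.1, numpy 2.4.6, matplotlib 3.10.9 and pandas 2.3.3.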

Additional observations from a re-analysis of the deposited data

Results flagged for a closer look

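The 31 CAL51-labelled barcodes whose sequence is also in the MDAMB468 library took no part in the comparisons, and they held signal of the genes described: 89 UMIs of the 8 members among 135240 UMIs. PARP1 had 34 of these UMIs, MSH6 18, MGMT 11 and BRCA1 10. The BRCA1 level in them was 73.9 CPM (35.5 to 136), an interval that holds the CAL51 level and the MDAMB468 level. ALKBH3, at 0 UMIs in the other 1346 CAL51 barcodes, had 1 UMI in these, or 7.39 CPM (0.187 to 41.2). KRT7, a keratin with 0 UMIs in the other CAL51 barcodes and 953 CPM in MDAMB468, had 106 UMIs in these 31, or 784 CPM.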

How the results depend on the processing

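The count of members at least 2-fold higher in CAL51 was 1 and the count in MDAMB468 was 0 in all 12 alternatives tried. BRCA1 ran from -1.34 to -1.03 on the log2 scale over 10 alternatives, PARP1 from -0.76 to -0.50, PMS1 from -0.71 to -0.46, MSH3 from -0.57 to -0.32, PMS2 from 0.12 to 0.37 and MGMT from -0.32 to -0.07. MSH6 (-0.19 to 0.07) and BRCA2 (-0.21 to 0.06) had no stable sign. The median over all genes shifted by -0.13 with median of ratios scaling and by -0.12 with TMM factors. Relative to the median of all genes BRCA1 ran from -1.10 to -0.85, and the MGMT difference had no stable sign. List medians kept their sign in every alternative. Phases called at 1000 UMIs moved 9 of 32 phase ratios beyond their counting interval, all in the direction of a smaller change, with G2M over G1 in CAL51 at 1.94 in place of 3.42 for BRCA1 and at 1.99 in place of 3.95 for BRCA2. The 2 other phase alternatives moved none of the 32. Depth limited the G1 values most, with 17 to 27 UMIs of BRCA1 and BRCA2. With 10 neighbours on either side no neighbour median changed sign. No paired analysis was possible because each line has 1 library and the labels give no replicate numbers, and for the same reason no replicate could be left out.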

Other observations

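Among the 31 CAL51-labelled barcodes with a sequence shared between the libraries, AIMP2 and ALKBH2 were picked out after their values were seen. AIMP2 had 63 UMIs there, or 466 CPM (358 to 596), against 213 CPM in MDAMB468 and 85.2 CPM in the other CAL51 barcodes. ALKBH2 had 41 UMIs there, or 303 CPM (218 to 411), against 49.1 and 40.4 CPM. Both levels lay above those of either line.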
